A study of Mus musculus with 9 samples.

Results

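The genes of leukotriene and lipoxygenase metabolism were examined in mouse bone marrow mononuclear cells with and without the leukemia fusion gene MLL-AF9. The set was a list of 9 gene symbols (Alox5, Alox5ap, Lta4h, Ltc4s, Alox12, Alox15, Ltb4r1, Cysltr1 and Cysltr2), chosen by function. Earlier results of these data were known when it was chosen. All 9 were found among the 22942 rows of the RNA table. MLL-AF9 joins the histone methyltransferase MLL to AF9, and the series addresses the part played by the dioxygenase Tet1 in leukemia with MLL rearrangements.

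Cells of both groups came from the B6.SJL (CD45.1) strain, and both received the MSCVpuro retrovirus. The control group had MSCVneo +MSCVpuro, and the MLL-AF9 group had MSCVneo-MLL-AF9+MSCVpuro, so the fusion was expressed from a retroviral vector. PolyA RNA was sequenced from 3 samples per group according to the sample titles, whereas the protocol text speaks of duplicates. The labels give no age of the animals, and do not say whether samples of a group came from separate animals.

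For each gene the table holds 1 pooled value per group, with the p-value and q-value of a comparison made by the authors. The value was taken as FPKM, a fragment count scaled by transcript length and library size, which allows levels of different genes to be set side by side. Values per sample, their spread and the sequencing depth are unknown, so every level below stands without an error. Log2 changes are log2(FPKM + 1) in MLL-AF9 minus control, a scale that understates the change of low genes. Folds are ratios of the FPKM values. A gene counted as expressed with a mean of both groups of at least 1 FPKM, and as called, higher or lower, where the authors' deposited table gave a q-value under 0.05. The median expressed gene had a log2 change of 0.29, so a change of that size marks no departure from the bulk of genes.

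Leukotrienes are signalling lipids made from arachidonic acid, mainly by myeloid cells. The enzyme 5-lipoxygenase, which Alox5 encodes, works with the membrane protein FLAP, the product of Alox5ap, to form the unstable epoxide leukotriene A4. Lta4h turns it into leukotriene B4, an attractant of neutrophils that acts through Ltb4r1, and Ltc4s joins it to glutathione to give the cysteinyl leukotrienes, which act on Cysltr1 and Cysltr2. Alox12 and Alox15 encode lipoxygenases that place oxygen at other positions of the fatty acid, and in the mouse the Alox15 enzyme is known from eosinophils and resident macrophages and that of Alox12 from platelets.

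The 5-lipoxygenase gene Alox5 and the 12/15-lipoxygenase gene Alox15 were lower in MLL-AF9 cells, and none of the 9 genes was called higher. Of the 9, 7 were expressed, and Alox12 and Cysltr2 stayed under the minimum. The 2 called genes are 28.6% of the 7 expressed members, against 10.3% of the 11538 expressed genes called in either direction, 5.20% called lower and 5.13% called higher. The median log2 change of the 7 was -0.82, against 0.29 for all expressed genes. Because the members were chosen with earlier results of these data known, this share and this median describe the set and support nothing further. In plain FPKM, 6 of the 9 genes were lower and 3 were higher in MLL-AF9 cells. An unadjusted p under 0.05 was given by the authors' deposited table for 4 of the 7 expressed members, 1 of them (Cysltr1) higher, compared with 19.8% of all expressed genes. In pooled RNA of mixed cells, fewer cells of a type and less RNA per cell cannot be told apart.

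**Figure D1:**
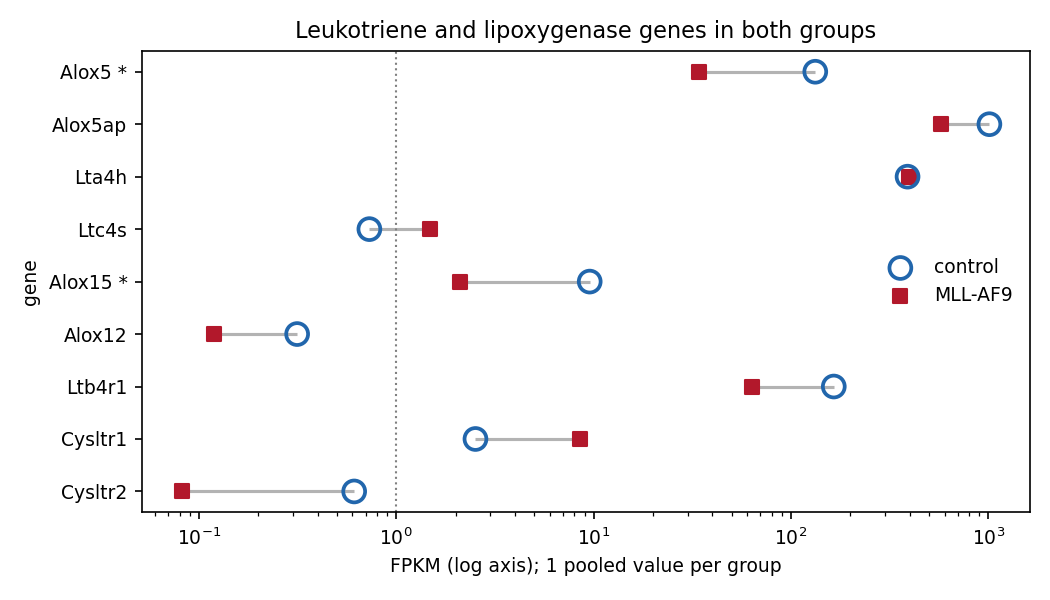
Pooled FPKM of the 9 genes (log axis) in control (open circles) and MLL-AF9 cells (squares), with an asterisk at the 2 genes called lower and a dotted line at 1 FPKM. The control and MLL-AF9 marks of Lta4h coincide at 389.6 and 396.8 FPKM, while those of Alox5 lie at 132.8 and 34.3 FPKM.

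The enzymes that start the pathway differed in level and in change. Alox5 stood at 132.8 FPKM in control and 34.3 FPKM in MLL-AF9 cells, which is 3.87-fold lower, and the authors' deposited table gave q = 0.00522. Its log2 change of -1.92 was undercut by 355 of the 11538 expressed genes. In control cells the Alox5 level was above or equal to that of 93.8% of expressed genes, and in MLL-AF9 cells to that of 73.1%.

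Alox5ap, whose product presents arachidonic acid to 5-lipoxygenase, was the most abundant of the 9 transcripts in both groups. It stood at 1012 FPKM in control and 573 FPKM in MLL-AF9 cells. The 1.77-fold difference did not pass (the authors' deposited table gave q = 0.474). The level of Alox5ap was 7.62 times that of Alox5 in control and 16.7 times in MLL-AF9 cells, a difference between groups that was not tested.

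Lta4h, the hydrolase that forms leukotriene B4, had nearly the same value in both groups, at 389.6 FPKM in control and 396.8 FPKM in MLL-AF9 cells (the authors' deposited table gave q = 0.988). It was next to Alox5ap at the top of the 9 genes in each group. The level of Lta4h was 2.93 times that of Alox5 in control and 11.6 times in MLL-AF9 cells. Its log2 change of 0.03 lay below the median of expressed genes and became -0.27 after centring on that median.

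Ltc4s, the synthase of leukotriene C4, was near the lower limit of the table. It stood at 0.731 FPKM in control and 1.49 FPKM in MLL-AF9 cells (the authors' deposited table gave q = 0.673), and it passed the expression minimum through its MLL-AF9 value, with a mean of 1.11 FPKM. Lta4h was thus far above Ltc4s in both groups. So was Mgst2, a related microsomal enzyme that can also form leukotriene C4. Mgst2 itself fell 2.95-fold, from 206 to 70.0 FPKM (the authors' deposited table gave q = 0.0432).

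Among the other lipoxygenases of the set, Alox15 fell. It stood at 9.56 FPKM in control and 2.11 FPKM in MLL-AF9 cells, 4.52-fold lower, and the authors' deposited table gave q = 0.0407. This q-value is close to the threshold of 0.05 and was 0.0420 when p-values were adjusted over the expressed genes alone. Alox12 was listed at 0.315 FPKM in control and 0.120 FPKM in MLL-AF9 cells, and the authors' deposited table gave q = 0.521. The order of the 3 lipoxygenases by level was the same in both groups, Alox5 above Alox15 above Alox12. Alox5 exceeded Alox15 by 13.9-fold in control and by 16.2-fold in MLL-AF9 cells.

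Alox12, Alox12e and Alox15 follow each other in the RefSeq order of coding genes on mouse chromosome 11. Alox12e, an epidermal-type lipoxygenase gene, was listed at 0.739 FPKM in control and 0.0906 FPKM in MLL-AF9 cells, under the expression minimum (the authors' deposited table gave q = 0.0702). All 3 neighbours had their lower value in MLL-AF9 cells, and of these Alox15 passed. The lipoxygenase genes are similar in sequence, and whether they share reads was not tested.

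None of the 3 receptor genes passed the threshold, and their values differed in opposite directions. Ltb4r1, the high-affinity receptor of leukotriene B4, stood at 164.8 FPKM in control and 63.3 FPKM in MLL-AF9 cells, a 2.60-fold lower value that did not pass (the authors' deposited table gave q = 0.0679). Cysltr1, a receptor of cysteinyl leukotrienes, stood at 2.52 FPKM in control and 8.55 FPKM in MLL-AF9 cells, 3.39-fold higher but without passing (the authors' deposited table gave q = 0.0923). In the RefSeq gene table Cysltr1 overlaps the coding gene Gm5127, and no other member overlapped a coding gene there. If the libraries were unstranded, reads from the overlap could not be assigned to 1 of the 2 genes. The sample titles do not give strandedness and the effect was not tested, so the value of Cysltr1 is uncertain. Cysltr2, the other receptor of this class, was listed at 0.613 FPKM in control and 0.0825 FPKM in MLL-AF9 cells (the authors' deposited table gave q = 0.113).

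Alox15, Ltb4r1 and Cysltr1 were the expressed members nearest to the threshold. At a q-value under 0.1, which 13.2% of expressed genes met, Ltb4r1 and Cysltr1 would be added and 4 members called. The order of the cysteinyl receptors was the same in both groups, with Cysltr1 above Cysltr2, which stayed under 1 FPKM in both. Ltb4r1 exceeded Cysltr1 by 65.4-fold in control and by 7.40-fold in MLL-AF9 cells, a difference between groups that was not tested. Ltb4r2, the low-affinity receptor of leukotriene B4 and the coding neighbour of Ltb4r1, was at 0.269 FPKM in control and 0.515 FPKM in MLL-AF9 cells, both under the expression minimum.

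**Figure D2:**
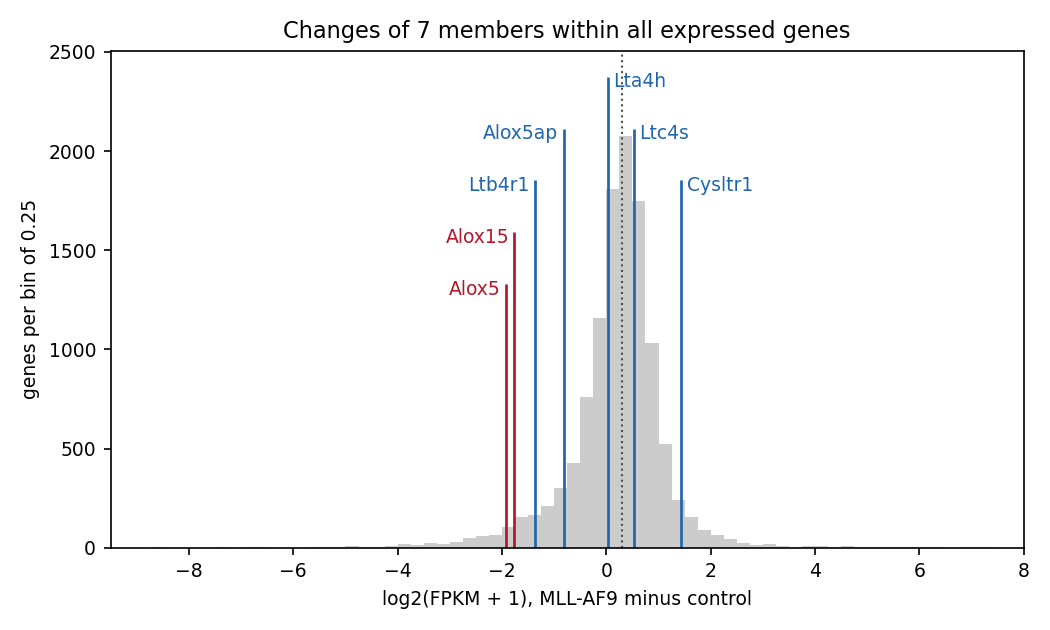
Distribution of log2(FPKM + 1) changes over the 11538 expressed genes (grey, genes per bin of 0.25), with the 7 expressed members as vertical lines (red, called; blue, not called) and the median of 0.29 dotted. Alox5 at -1.92 and Alox15 at -1.76 lie in the lower tail, and Cysltr1 at 1.44 lies in the upper tail without being called.

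By level the 9 genes ran from 0.315 to 1012 FPKM in control and from 0.0825 to 573 FPKM in MLL-AF9 cells. The 4 highest kept their order, from Alox5ap through Lta4h and Ltb4r1 to Alox5 in both groups. Alox15 and Cysltr1 exchanged places between groups, and so did Alox12 and Cysltr2 at the lower end. With 1 pooled value per group, whether neighbours in this order differ beyond their spread cannot be tested.

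Upstream sequence is shown for Alox5, the called member that the RefSeq promoter table holds, and for Ltb4r1, the member next to the threshold that it holds. The table matched 6 of the 9 members. The lines give the 250 bases before the annotated start, 5′ to 3′ on the gene's strand, in build GRCm38. Alox5 lies at chr6:116461179-116461428 on the minus strand and Ltb4r1 at chr14:55765712-55765961 on the plus strand. Capitals mark matches on either strand to the GC box GGGCGG, the core bound by Sp1-type factors, and to the PU box GAGGAA, a purine-rich core bound by the myeloid factor PU.1.
Alox5: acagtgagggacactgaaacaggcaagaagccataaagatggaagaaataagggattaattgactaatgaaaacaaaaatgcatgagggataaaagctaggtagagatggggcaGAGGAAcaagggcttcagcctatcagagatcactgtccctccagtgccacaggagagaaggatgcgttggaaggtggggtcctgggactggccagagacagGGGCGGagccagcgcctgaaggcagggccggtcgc
Ltb4r1: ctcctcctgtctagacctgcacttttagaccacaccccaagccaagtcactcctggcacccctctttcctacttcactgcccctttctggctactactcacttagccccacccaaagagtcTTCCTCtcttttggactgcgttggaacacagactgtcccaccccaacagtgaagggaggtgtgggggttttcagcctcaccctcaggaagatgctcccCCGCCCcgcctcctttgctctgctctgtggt

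Each of the 2 sequences held 1 GC box and 1 PU box. The GC box lay 35 to 30 bases before the start of Alox5 and 31 to 26 bases before that of Ltb4r1, on opposite strands. The PU box lay 136 to 131 bases before the start of Alox5 and 129 to 124 bases before that of Ltb4r1, again on opposite strands. No match overlapped another. Such matches are common: of 32851 upstream windows of this length, 32.7% held GGGCGG and 23.3% held GAGGAA on either strand. Over the 6 matched members, 3 held the GC box (Alox5, Alox12 and Ltb4r1) and 4 held the PU box (these 3 and Lta4h). None of the 6 held TATAAA, which 12.4% of all windows held. The matches describe letters only, and no binding was measured.

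Around the 9 genes, 68 further genes of the pathway were listed by role, of which 61 were matched and 37 were expressed. Of these 37, 3 rose and 9 fell, or 32.4% called against 10.3% of all expressed genes. The median log2 change of the 37 was -0.14. The lists were chosen with earlier results of these data known and hold genes that also serve other lipid or peptide signals, so the share of calls is a description of these lists and supports nothing further.

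Of 12 expressed genes of leukotriene conversion and breakdown, 3 rose and 4 fell, with a median log2 change of 0.13. The glutamyl transferases that turn leukotriene C4 into D4 fell. Ggt5, named for this reaction, was 12.8-fold lower, at 0.840 FPKM in MLL-AF9 against 10.8 FPKM in control cells (the authors' deposited table gave q = 7.65e-05). Ggt1 was 12.9-fold lower, at 0.385 against 4.95 FPKM (the authors' deposited table gave q = 0.00146). Dpep2, a membrane dipeptidase that converts leukotriene D4 into E4, rose 8.45-fold, from 3.15 to 26.6 FPKM (the authors' deposited table gave q = 0.000430). Successive steps of one route thus held calls in opposite directions.

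The inactivation of leukotriene B4 also held a rise. Ptgr1, a reductase that also oxidizes leukotriene B4 at its 12-hydroxyl group, rose 3.30-fold, from 31.5 to 104 FPKM (the authors' deposited table gave q = 0.0121). Cyp4f18, the neutrophil hydroxylase of leukotriene B4, was at 124 FPKM in control and 56.7 FPKM in MLL-AF9 cells without passing (the authors' deposited table gave q = 0.165). Hpgd, known chiefly for the breakdown of prostaglandins, also rose, 90.1-fold from 5.36 to 482 FPKM. Mgst1, a glutathione transferase of detoxification, fell 5.21-fold from 392 to 75.3 FPKM (the authors' deposited table gave q = 0.000316).

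Of 13 expressed genes on the list of arachidonate release and related lipid remodelling, 0 rose and 3 fell, with a median log2 change of -0.14. The main cytosolic phospholipase of the pathway, Pla2g4a, was not among them, at 12.8 FPKM in control and 11.6 FPKM in MLL-AF9 cells (the authors' deposited table gave q = 0.926). The genes that fell included 2 of platelet-activating factor metabolism, a neighbouring lipid mediator. Pla2g7, which degrades that factor, was 70.7-fold lower, at 0.947 against 67.0 FPKM (the authors' deposited table gave q = 1.26e-11). Lpcat2, which forms it, was 4.36-fold lower, at 13.3 against 58.0 FPKM (the authors' deposited table gave q = 0.00176). The secreted-type phospholipase gene Pla2g12a was 4.04-fold lower, at 2.09 against 8.47 FPKM (the authors' deposited table gave q = 0.0134).

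Of the 5 expressed genes for partners of 5-lipoxygenase and its redox state, 0 passed, and 1 had an unadjusted p under 0.05 in the authors' deposited table. The median log2 change of the 5 was 0.43. Cotl1, which encodes a 5-lipoxygenase binding protein of the actin cytoskeleton, was at 581 FPKM in control and 215 FPKM in MLL-AF9 cells (the authors' deposited table gave q = 0.127). Gpx1, Dicer1 and Mapkapk2 had their higher value in MLL-AF9 cells and Gpx4 its lower value, all without passing. Of 2 expressed export genes 0 passed and 1 had an unadjusted p under 0.05, the leukotriene C4 transporter Abcc1 at 7.28 FPKM in control and 18.6 FPKM in MLL-AF9 cells (the authors' deposited table gave q = 0.0750). The 4 further lipoxygenase genes were all under the expression minimum, the highest of them Alox8 at 0.778 and 0.940 FPKM.

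Of 5 expressed genes for other receptors, 0 rose and 2 fell, with a median log2 change of -0.97. That median is the value of P2ry12, which passed the expression minimum through its control value. P2ry12 was at 2.11 FPKM in control and 0.581 FPKM in MLL-AF9 cells and was not called (the authors' deposited table gave q = 0.239). The 2 that fell are formyl peptide receptors of neutrophils rather than leukotriene receptors. Fpr2, which also binds lipoxin A4, a lipoxygenase product, was 5.06-fold lower, at 81.1 against 410 FPKM (the authors' deposited table gave q = 0.000633). Fpr1 was 23.4-fold lower, at 6.31 against 148 FPKM (the authors' deposited table gave q = 4.31e-09).

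**Figure D3:**
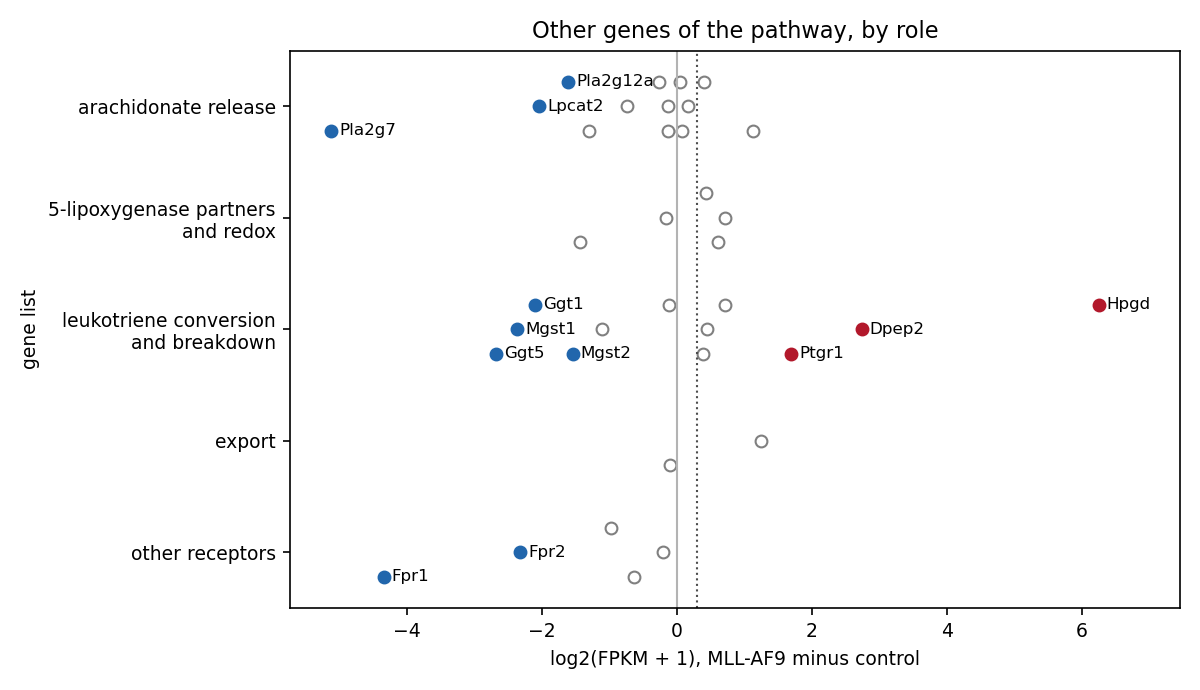
Changes in log2(FPKM + 1), MLL-AF9 minus control, of the 37 expressed genes around the 9 members, by role (filled red, called higher; filled blue, called lower; open, not called), with a dotted line at the median expressed gene. Called genes of leukotriene conversion and breakdown lie on both sides, 3 higher and 4 lower, and those of arachidonate release and of the other receptors lie on the lower side.

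Markers of blood cell types also differed. Which cells of these samples made the 9 transcripts was not measured. The marker lists were chosen with earlier results of these data known, so their counts describe the lists only. Over all expressed genes, 5.20% were called lower and 5.13% higher. Of 9 expressed late neutrophil markers, 9 fell and 0 rose, and their summed level was 194932 FPKM in control and 21876 FPKM in MLL-AF9 cells, or 64082 and 5664 FPKM without S100a8, the highest of them. Of 6 expressed eosinophil markers, 4 fell and 0 rose, and the sum of the 7 matched markers was 313 FPKM in control and 63.2 FPKM in MLL-AF9 cells. Without Prg2, the highest of them, the sums were 74.3 FPKM in control and 16.5 FPKM in MLL-AF9 cells. Siglec5 of this list had its higher value in MLL-AF9 cells without passing. No matched marker of either list was at 0 in either group. Their part in the lower Alox5 and Alox15 levels was not tested.

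Falls were also found in most of the lists of other lineages. Of 4 primary granule markers, which mark earlier granulocytes, 0 passed and 1 had an unadjusted p under 0.05 in the authors' deposited table, with sums of 2754 FPKM in control and 4093 FPKM in MLL-AF9 cells. Of 12 expressed monocyte and macrophage markers, 4 fell and 0 rose, with sums of 14372 and 2637 FPKM. Lyz2, which was not called, made up most of that difference, and without it the sums were 2139 FPKM in control and 1748 FPKM in MLL-AF9 cells. The 4 of this list that fell were C1qa, C1qb, C1qc and Vcam1. Emr1, Cd14 and Cd68 had their higher value in MLL-AF9 cells, and Ly6c2, Ccr2 and F13a1 their lower value, all without passing. Csf1r was nearly equal, at 81.3 FPKM in control and 82.4 FPKM in MLL-AF9 cells. Of 8 expressed mast cell and basophil markers, 3 fell and 1 (Cpa3) rose. The matched markers summed to 777 FPKM in control and 479 FPKM in MLL-AF9 cells. Without Prss34, the highest of them, the sums were 465 and 409 FPKM. Tpsb2 was listed at 0 in both groups. Platelet and megakaryocyte markers summed to 43.9 FPKM in control and 30.1 FPKM in MLL-AF9 cells, with 2 of 6 expressed markers called lower. Without Itgb3, the highest of them, the sums were 29.7 FPKM in control and 14.8 FPKM in MLL-AF9 cells. The 4 markers of resident peritoneal or alveolar macrophages summed to 1.14 and 0.375 FPKM, nearly all of it Siglec1, with Gata6 at 0 in both groups. Their part in the values of the 9 genes was not tested. All 15 expressed markers of B cells, T and NK cells and red cells fell as well. As a check of the group labels, the fusion targets Hoxa9 and Meis1 were 75.3-fold and 25.3-fold higher in MLL-AF9 than in control cells.

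**Figure D4:**
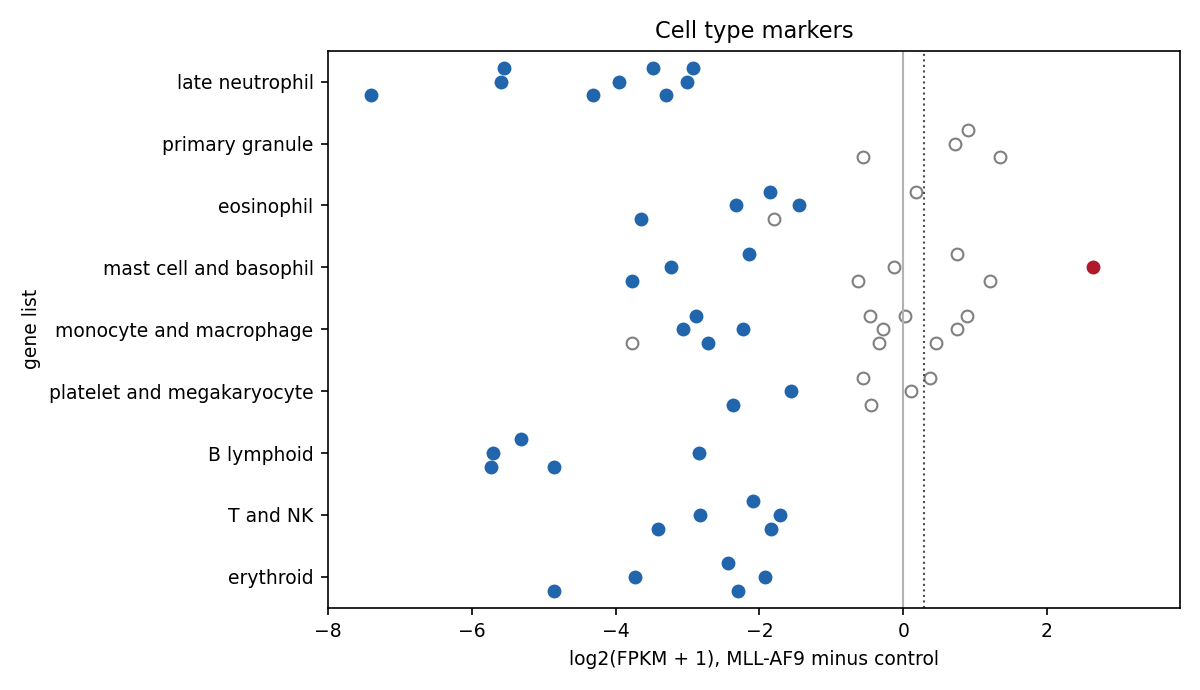
Changes in log2(FPKM + 1), MLL-AF9 minus control, of expressed cell type markers by list (filled blue, called lower; filled red, called higher; open, not called), with a dotted line at the median expressed gene. All 9 late neutrophil markers are called lower, whereas none of the 4 primary granule markers is called.

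Genes with the pair of values most like those of the called members were taken by Euclidean distance in log2(FPKM + 1) over the 2 pooled values. Nearest to Alox5 were Pi16, Litaf and Nudt4, at distances of 0.10, 0.15 and 0.15. Nearest to Alox15 was Prg3, which encodes an eosinophil granule protein, at 9.63 FPKM in control and 2.05 FPKM in MLL-AF9 cells and a distance of 0.03. Ldlrad3 and Gramd3 followed at 0.07 and 0.09. A likeness over 2 pooled values says only that the levels are near each other.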

How the data were processed

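The authors' deposited RNA table holds 1 pooled value per gene and group. The deposited values were taken as FPKM, since the header gives no unit and Cufflinks 1.3.0 and TopHat 1.4.1 are listed, with build mm9, per the submitters' processing notes. The sources used here do not say how they were run. Each row has a deposited p-value and q-value from a comparison by the authors, for which the file headers name no test. The q-values matched a Benjamini-Hochberg adjustment over the 13502 rows listed with a q-value under 1, within 0.001 for all of them, and all 9 members are among those rows. No test was computed anew, because there are no values per sample. The row of S100a9 was not used, because its control value of 0 is probably a failed estimate.

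The members and gene lists were chosen with earlier results of these data known. All 9 members are named, and of the pathway lists every called gene and others to describe a list. Alternatives changed the pseudocount, filter, threshold, adjustment and scaling. The log2 change, the Benjamini-Hochberg adjustment and the quantile normalization were tested on simulated data. That test does not bear on the deposited q-values or on the matching of lists and motifs. Regions of 5hmC were not assigned to the 9 genes, as gene positions in mm9 were not used here. The planned comparison of member proteins was not run. Python 3.11.15, numpy 2.4.6, pandas 2.3.3 and matplotlib 3.10.9 were used.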

Additional observations from a re-analysis of the deposited data

How the results depend on the processing

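The number of members called was 2 with a mean of at least 5 FPKM, without a filter on low values and with adjustment over expressed genes alone, 1 at a q-value under 0.01 and 4 at a q-value under 0.1. The median log2 change of the members, -0.82, lay between -1.11 and -0.81 under 3 other pseudocounts, quantile normalization and median centring. The median expressed gene moved from 0.29 to 0.09 under quantile normalization. Lta4h changed sign to -0.27 under median centring. The median of leukotriene conversion and breakdown changed sign to -0.13 under quantile normalization. The median of the other receptors was -1.70 with a pseudocount of 0.1, and the called export genes numbered 1 at a q-value under 0.1. Of 45 member values under these alternatives, 40 stayed within 1.5-fold of the reported change without a change of sign. Besides the sign change of Lta4h, 4 values moved further. With a pseudocount of 5, Alox15 was at -1.03 instead of -1.76 and Cysltr1 at 0.85 instead of 1.44. With a pseudocount of 0.1, Alox12 was at -0.92 and Cysltr2 at -1.97. Median centring shifted every member by the same 0.29, less than 1.5-fold, so it could alter only a sign. Ltc4s stayed within the limit but ran from 0.18 with a pseudocount of 5 to 0.94 with a pseudocount of 0.1. The count of 40 is therefore no measure of how firm the changes are. No sample could be left out, and no paired analysis was possible because the table holds 1 pooled value per group. Depth is unknown, so values under 1 FPKM, as for Alox12 and Cysltr2, carry no limit of detection.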
